A study of Mus musculus with 9 samples.

Results

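The intercalated disc is the contact zone at which heart muscle cells are joined end to end, and 10 genes of its adhesive and gap junctions were followed here in cultured neonatal mouse ventricular myocytes (NMVMs). They were taken by symbol from the deposited count table, in which each symbol occurred once, and make up 10 of its 55401 genes: Dsp, Dsg2, Dsc2, Pkp2, Jup, Cdh2, Ctnna3, Gja1, Tjp1 and Xirp1. The cultures came from wild-type C57BL/6J pups at day 1 of life, and each of the 3 groups held 3 RNA-seq libraries. Control cells stayed in normal oxygen in complete DMEM with 10% fetal bovine serum. The hypoxia group spent 6 h in a sealed AnaeroPack chamber, an oxygen-absorbing system, in DMEM that lacked both glucose and serum. The hypoxia + rSRGN group had the same 6 h and the same medium with recombinant serglycin (rSRGN), the core protein of a secreted proteoglycan, added at a dose that the labels do not give. Oxygen, glucose and serum changed together, so their parts in any difference from control cannot be told apart, whereas the 2 hypoxic groups differ by label in rSRGN alone. The labels do not say whether the 3 libraries of a group came from separate preparations of cells, and the p-values therefore measure the spread between these libraries, which may be technical.

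Adhesion at the disc rests on desmosomes, which tie the desmin filaments of neighbouring cells together, and on adherens junctions, which join their actin filaments. Desmosomes consist of transmembrane cadherins (desmoglein and desmocollin), armadillo proteins (plakophilin and plakoglobin) and the plakin desmoplakin, while N-cadherin and the catenins form the adherens junction. Gap junctions lie beside them, built from connexins that let current pass from cell to cell, and inherited defects in desmosome genes are a known cause of arrhythmogenic cardiomyopathy.

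The libraries held 21669017 to 22781557 counted fragments in the control group, 16583985 to 18148474 in hypoxia and 16640239 to 20826701 in hypoxia + rSRGN. All 10 genes were among the 16762 genes with enough counts to test. Levels are given as CPM, which are counts brought to a common library size with TMM scaling factors. A gene was called higher or lower when edgeR's quasi-likelihood test gave a Benjamini-Hochberg adjusted p below 0.05 over all tested genes and the fold change was at least 1.5. The median log2 fold change of all tested genes was 0.05 in hypoxia against control and -0.03 in hypoxia + rSRGN against hypoxia.

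All 10 genes fell in hypoxia, from 1.67-fold for Jup to 59.6-fold for Xirp1. Among all tested genes 25.1% were called lower and 26.4% higher in this comparison. The 3 hypoxia libraries lay below all 3 control libraries for each of the 10 genes, as they did for 35.3% of tested genes. The median log2 fold change of the 10 genes was -2.97. Their summed level was 5104 to 5434 CPM in the control libraries and 914.8 to 1128 CPM in hypoxia.

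With rSRGN, 5 of the 10 genes (Xirp1, Dsc2, Dsp, Dsg2 and Ctnna3) were called higher than in hypoxia alone, against 2.27% of tested genes called higher and 0.859% called lower. Another 3 (Pkp2, Gja1 and Tjp1) had an adjusted p below 0.05 but stayed under the 1.5-fold limit, so 8 of 10 passed the adjusted p at any fold, against 10.5% of tested genes that did so on the higher side. All 3 libraries with rSRGN lay above all 3 hypoxia libraries for these same 8 genes, as for 16.5% of tested genes. The remaining pair, Cdh2 and Jup, did not pass the test with edgeR as set here (adjusted p = 0.08706 and 0.6223). Jup passed under none of the alternatives. For Cdh2 the adjusted p ran from 0.002074 without hypoxia replicate 2 to 0.3388 without hypoxia replicate 3, with log2 values of 0.31 and 0.13 beside 0.21 with all libraries. It was 0.02331 with DESeq2, 0.04805 with RLE scaling and 0.03614 when every gene with 1 or more counts was kept, and in each case the value was under the 1.5-fold limit. Hypoxia replicate 3 had the lowest level of its group for 8 of the 10 genes, and without that library 3 of the 10 were called higher. Calls over all tested genes, in both directions together, went from 525 to 316 without it. Both comparisons use the hypoxia libraries, so a low hypoxia value enters the fall and the rise alike.

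The levels with rSRGN stayed below control. Against control, 9 of the 10 genes were called lower, beside 24.7% of tested genes called lower and 24.1% called higher. Tjp1 was the exception, at 1.32-fold below control (edgeR, adjusted p = 4.717e-05), which is under the fold limit. For all 10 genes the 3 libraries with rSRGN lay below the 3 control libraries, which was also true of 36.6% of tested genes. Their summed level with rSRGN was 1315 to 1365 CPM.

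**Figure D1:**
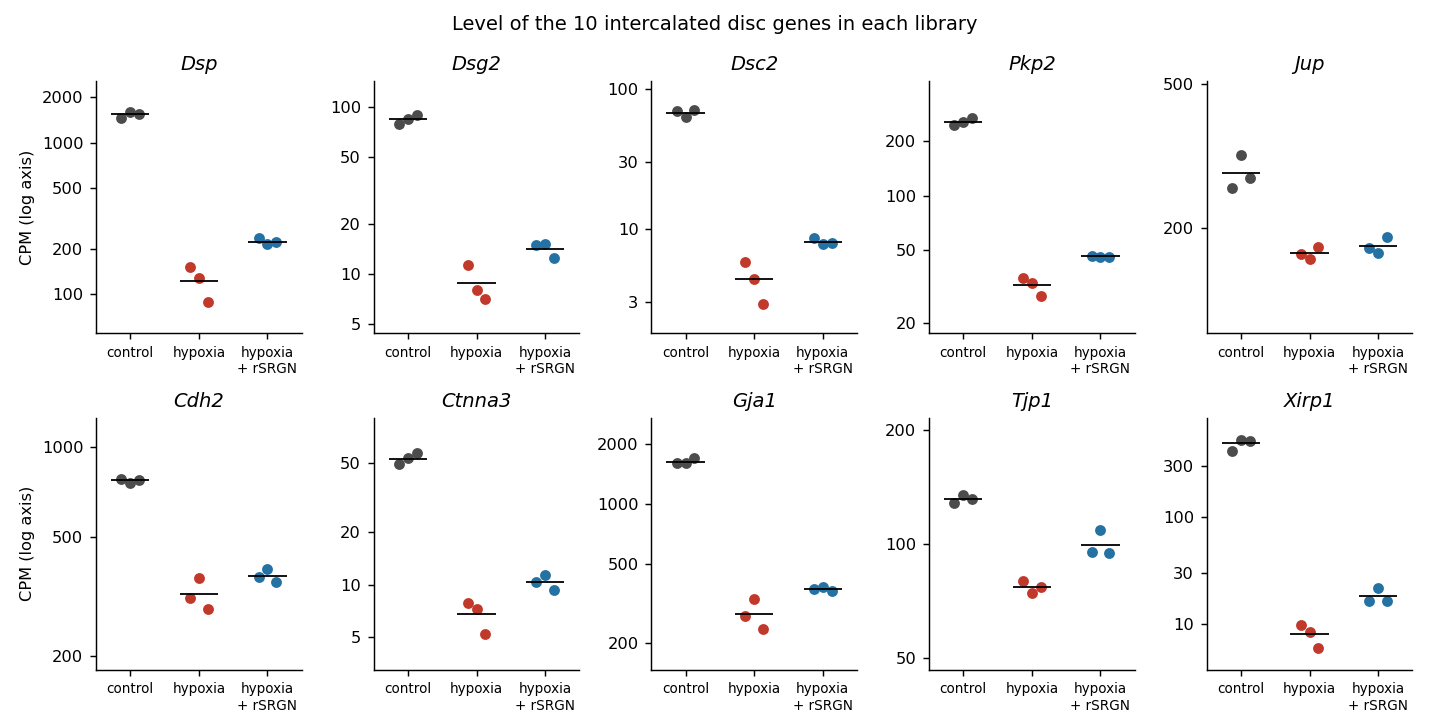
Level of each gene in CPM on a log axis, with 1 point per library, the 3 groups side by side and a black line at the group mean. The control points stand apart from the others in every panel, and for Cdh2 and Jup the hypoxia and hypoxia + rSRGN points overlap.

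Of the desmosome genes, Dsp encodes desmoplakin, which links the junction to desmin. It lies on chromosome 13 from 38151294 to 38198577 on the plus strand (GRCm38). Its level was 1469, 1604 and 1561 CPM in the control libraries, 152.1, 127.9 and 88.3 CPM in hypoxia, and 234.1, 212.7 and 219.6 CPM in hypoxia + rSRGN. The 3 groups did not overlap, and the relative spread was widest in hypoxia (coefficient of variation 26.2%), where replicate 3 was the lowest. The fall in hypoxia was 12.6-fold (log2 fold change -3.65 ± 0.13 SE, edgeR, adjusted p = 2.008e-16) and the rise with rSRGN was 1.81-fold (0.85 ± 0.12 SE, adjusted p = 0.0001205). Exons of Dsp share 499 bases (5.17%) with Gm10129 on the other strand, and this gene had 0 to 16 counts per library.

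The desmosomal cadherins Dsg2 (desmoglein) and Dsc2 (desmocollin) span the membrane and bind their partners on the next cell. Both lie on chromosome 18, Dsg2 from 20558074 to 20604521 on the plus strand and Dsc2 from 20030633 to 20059554 on the minus strand. Dsg2 had 78.6, 85.2 and 89.4 CPM in control, 11.2, 8.03 and 7.07 CPM in hypoxia and 14.95, 15.13 and 12.36 CPM with rSRGN. Dsc2 had 68.8, 62.7 and 70.8 CPM in control, 5.80, 4.39 and 2.90 CPM in hypoxia and 8.58, 7.76 and 7.98 CPM with rSRGN. For both, the lowest hypoxia library was replicate 3 and no groups overlapped. Dsc2 was thus at 6.47% of its control mean in hypoxia and 12.02% with rSRGN, and Dsg2 at 10.4% and 16.8%. In hypoxia Dsc2 fell 15.4-fold (log2 -3.94 ± 0.15 SE, edgeR, adjusted p = 5.207e-16) and Dsg2 9.58-fold (-3.26 ± 0.13 SE, adjusted p = 1.361e-15). With rSRGN they rose 1.84-fold (0.88 ± 0.17 SE, edgeR, adjusted p = 0.001165) and 1.61-fold (0.68 ± 0.14 SE, adjusted p = 0.001951). The rise of Dsg2 was 0.55 on the log2 scale without hypoxia replicate 3, below the fold limit, with an adjusted p of 0.01403 in edgeR. These rises rest on few fragments, since the summed counts in hypoxia were 470 for Dsg2 and 234 for Dsc2. Dsg2 shares 330 exonic bases (3.99%) with the antisense gene Gm16090, which had 0 to 12 counts per library.

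Pkp2 and Jup encode the armadillo proteins plakophilin and plakoglobin, which join the cadherin tails to desmoplakin. Pkp2 lies on chromosome 16 from 16213318 to 16272712 (plus strand) and Jup on chromosome 11 from 100368958 to 100397763 (minus strand). Pkp2 had 245.0, 252.7 and 266.7 CPM in control, 35.1, 33.34 and 28.15 CPM in hypoxia and 46.7, 46.1 and 46.3 CPM with rSRGN. Jup had 257.3, 318.3 and 275.5 CPM in control, 169.5, 164.2 and 177.3 CPM in hypoxia and 176.1, 170.3 and 189.1 CPM with rSRGN. The groups of Pkp2 were fully separated, while for Jup the hypoxia and hypoxia + rSRGN libraries overlapped and control replicate 2 was the highest of its group. Pkp2 fell 7.91-fold in hypoxia (log2 -2.98 ± 0.08 SE, edgeR, adjusted p = 6.498e-18) and Jup 1.67-fold (-0.74 ± 0.08 SE, adjusted p = 2.784e-08), the smallest fall of the 10. With rSRGN, Pkp2 was 1.44-fold higher (0.53 ± 0.08 SE, edgeR, adjusted p = 0.0002913), and without hypoxia replicate 1 this was 0.59, past the fold limit. The difference for Jup was 0.07 with a 95% interval from -0.10 to 0.23 (edgeR, adjusted p = 0.6223). Jup with rSRGN was 1.59-fold below control, and without control replicate 2 the log2 difference was -0.58, under the fold limit.

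At the adherens junction, Cdh2 (N-cadherin) is the transmembrane cadherin and Ctnna3 (alphaT-catenin) a catenin that links it to actin and also binds plakophilin. Cdh2 lies on chromosome 18 from 16588877 to 16809246 (minus strand), and Ctnna3 on chromosome 10 from 63430098 to 65003667 (plus strand). Cdh2 had 785.5, 763.0 and 776.3 CPM in control, 312.4, 366.4 and 288.5 CPM in hypoxia and 368.0, 391.2 and 355.8 CPM with rSRGN. Ctnna3 had 49.1, 53.1 and 56.8 CPM in control, 7.84, 7.28 and 5.21 CPM in hypoxia and 10.4, 11.4 and 9.30 CPM with rSRGN. Hypoxia replicate 3 was again the lowest for both, and the 2 hypoxic groups overlapped for Cdh2 but not for Ctnna3. Cdh2 fell 2.40-fold in hypoxia (log2 -1.265 ± 0.081 SE, edgeR, adjusted p = 4.768e-12) and Ctnna3 7.79-fold (-2.96 ± 0.13 SE, adjusted p = 5.884e-15). With rSRGN, Ctnna3 rose 1.53-fold (0.61 ± 0.14 SE, edgeR, adjusted p = 0.004905), and the difference for Cdh2 was 0.21 with a 95% interval from 0.04 to 0.37 (adjusted p = 0.08706). The rise of Ctnna3 fell under the fold limit without hypoxia replicate 3 (0.46) and without hypoxia + rSRGN replicate 2 (0.54), with adjusted p of 0.03652 and 0.04131 in edgeR.

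Gja1 encodes the main connexin of working ventricular muscle, and Tjp1 encodes ZO-1, a scaffold at the edge of the gap junction plaque. Gja1 lies on chromosome 10 from 56377330 to 56402513 (plus strand) and Tjp1 on chromosome 7 from 65296165 to 65527781 (minus strand). Gja1 had 1605, 1598 and 1695 CPM in control, 271.3, 333.3 and 234.1 CPM in hypoxia and 370.8, 379.6 and 362.8 CPM with rSRGN. Tjp1 had 128.8, 135.0 and 131.9 CPM in control, 79.9, 74.5 and 77.3 CPM in hypoxia and 95.3, 109.1 and 94.9 CPM with rSRGN. For neither gene did any groups overlap. Gja1 was at 17.1% of its control mean in hypoxia and at 22.7% with rSRGN, and Tjp1 at 58.55% and 75.64%. In hypoxia Gja1 fell 5.84-fold (log2 -2.55 ± 0.10 SE, edgeR, adjusted p = 6.327e-16) and Tjp1 1.71-fold (-0.77 ± 0.07 SE, adjusted p = 4.335e-09). With rSRGN, Gja1 was 1.33-fold (0.41 ± 0.09 SE, edgeR, adjusted p = 0.004585) and Tjp1 1.29-fold higher (0.37 ± 0.07 SE, adjusted p = 0.001846), both under the fold limit.

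Xirp1 encodes Xin, a striated muscle protein that binds actin at the disc. It lies on chromosome 9 from 120013755 to 120023598 on the minus strand. It had 416.4, 526.3 and 510.4 CPM in control, 9.88, 8.38 and 6.02 CPM in hypoxia, and 16.6, 21.9 and 16.6 CPM with rSRGN. All 3 groups were separated, by far more between control and the hypoxic groups than between these. Xirp1 had the largest fall of the 10 genes (59.6-fold, log2 -5.90 ± 0.14 SE, edgeR, adjusted p = 6.758e-19) and the largest rise with rSRGN (2.27-fold, 1.18 ± 0.15 SE, adjusted p = 4.75e-05). The rise rests on summed counts of 433 in the hypoxia libraries and 1048 with rSRGN. It stood at 3.79% of its control mean with rSRGN, after 1.67% in hypoxia alone.

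**Figure D2:**
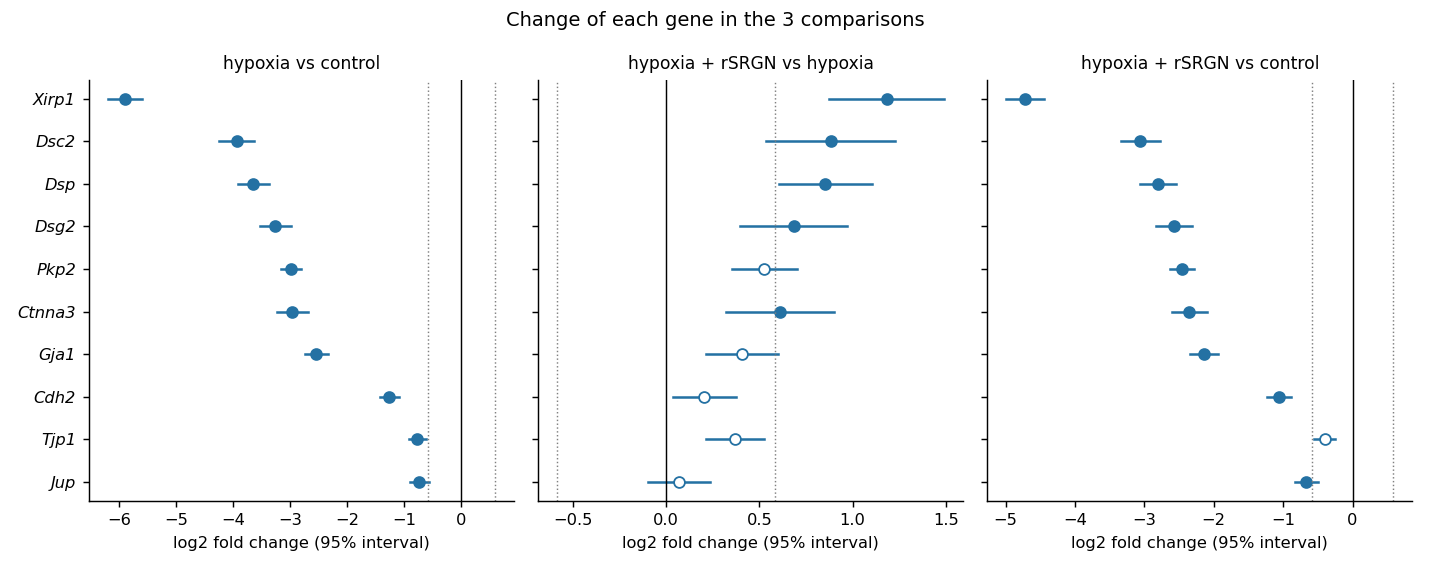
Log2 fold change of each gene in the 3 comparisons (x axis, with 95% intervals as bars), ordered by the fall in hypoxia. Filled points were called, open points were not, and dotted lines mark the 1.5-fold limit. Xirp1 lies farthest from 0 in all 3 panels and Jup, Tjp1 and Cdh2 lie closest to it.

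These genes were at very unequal levels when compared per length of transcript (RPKM, the CPM divided by the exonic length in kilobases). In control the highest were Dsp (159.9 RPKM) and Gja1 (159.2), which overlapped, followed by Cdh2 (96.1) and Xirp1 (77.75). Pkp2 (47.5) and Jup (44.1) came next and overlapped, and below them were Tjp1 (16.9), Dsc2 (12.8), Dsg2 (10.2) and Ctnna3 (7.33), each separated from the next. In hypoxia Cdh2 stood first at 40.0 RPKM, ahead of Gja1 (27.3) and Jup (26.5), which overlapped. Dsp came next at 12.7 RPKM and overlapped Tjp1 at 9.89, and Xirp1 stood at 1.30, below Pkp2 (6.01). The lowest 4, Xirp1, Dsg2, Ctnna3 and Dsc2, each overlapped the next in hypoxia. With rSRGN the order of the first 8 genes was the same as in hypoxia (Cdh2, Gja1, Jup, Dsp, Tjp1, Pkp2, Xirp1 and Dsg2), with no overlap between neighbours among them, at 46.1 RPKM for Cdh2 and 1.71 for Dsg2. As a share of the summed RPKM of the 10 genes, Dsp went from 25.3% in control to 10.05% in hypoxia and 14.2% with rSRGN. Cdh2 went from 15.2% to 31.6% and 28.4%, and Jup from 6.98% to 20.9% and 17.1%.

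The culture label was checked against markers. All 10 cardiomyocyte markers (Tnnt2, Tnni3, Myh6, Myh7, Actc1, Actn2, Ttn, Myl2, Mybpc3 and Nkx2-5) were detected in every group. Their summed level was 44380 to 54800 CPM in control, 3689 to 5537 CPM in hypoxia and 7065 to 7532 CPM with rSRGN, which is 9.72% and 14.5% of the control mean in the hypoxic groups. All 10 were called lower in hypoxia, by 2.40 to 4.95 on the log2 scale, beside 25.1% of all tested genes. With rSRGN against hypoxia 9 of 10 were called higher, beside 2.27% of all tested genes. In the same libraries the 8 fibroblast markers summed to 8657 to 10240 CPM in control, 17100 to 19890 CPM in hypoxia and 18920 to 19480 CPM with rSRGN. Most of this sum was Col1a1, Col1a2 and Col3a1, at 8105, 4541 and 3948 CPM in hypoxia. In hypoxia 6 of the 8 were called higher, beside 26.4% of all tested genes, and Pdgfra and Lum were not called. In such bulk samples fewer cells of a type and less RNA per cell cannot be told apart, and the part of cell make-up in the changes of the 10 genes was not tested. The other marker lists moved as well. Macrophage markers (7 genes) stood at 10.9% of their control mean in hypoxia, endothelial markers (8 genes) at 62.0%, and epicardial and mesothelial markers (7 genes) at 417.3%. All 7 macrophage markers were called lower, beside 25.1% of tested genes. Lyz2 carried their sum, with 193.5 CPM in control of a mean sum of 233.2 CPM, and Csf1r stood at 50.6%. Of the endothelial markers 6 were called lower, while Tek (106.5%) and Egfl7 (112.0%) were not called. All 7 epicardial and mesothelial markers were called higher, beside 26.4% of tested genes. The 7 smooth muscle and pericyte markers summed to 136.7%, a sum carried by Acta2 (1386 CPM in control and 2027 CPM in hypoxia). Of these 7 markers 2 were called higher and 1 lower, beside 26.4% and 25.1% of tested genes. The number called higher is thus near the background. A value above 0 was found for 3 of the 7, and their median log2 fold change was -0.28.

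The genes whose profile over the 9 libraries was most like that of each disc gene were found among 9749 tested genes with a mean of at least 10 CPM, by the root mean square difference of log2 CPM after centring. A value of 0 would mean parallel profiles. Nearest to Dsp were Myl3 (0.06) and Ldb3 (0.07), genes of the ventricular light chain and of a Z-disc protein, and then Myl2 (0.10). For Dsg2 they were Pip5k1b, Tnni3 and Cox6a2 (0.08 to 0.09), and for Dsc2 Nebl, Smyd1 and Abcc9 (0.09 to 0.10). Pkp2 was nearest to Eno3, the muscle enolase (0.04), and Ctnna3 to the calcium channel gene Cacna1c (0.08), followed by Cox7a1 and the calcium pump gene Atp2a2. Gja1 was nearest to Ndrg2 (0.08), Cdh2 to Pja2 (0.03), Tjp1 to Prr14l (0.05) and Jup to Usp19 (0.05). Xirp1 had no close match, with Aqp4 the nearest at 0.23. None of these was another of the 10 genes.

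Sequence upstream of the start site is given for genes that fell steeply (Dsp, Gja1) and slightly (Tjp1, Jup), so that members with unlike changes can be compared. RefSeq promoter windows (GRCm38.p6), from 250 bases before to 50 bases after a start, were on hand for 5 of the 10 genes, the fifth being Ctnna3 with 3 start sites. Only bases before the annotated exons are printed, 5′ to 3′ on the strand of the gene, and capitals mark matches to the motifs named below. The Dsp stretch is chr13:38151044-38151293 (plus), the Gja1 stretch chr10:56377050-56377299 (plus), the Tjp1 stretch chr7:65371245-65371494 (minus) and the Jup stretch chr11:100397840-100398040 (minus). The Tjp1 start used by RefSeq lies inside the longer gene model on which fragments were counted.
Dsp: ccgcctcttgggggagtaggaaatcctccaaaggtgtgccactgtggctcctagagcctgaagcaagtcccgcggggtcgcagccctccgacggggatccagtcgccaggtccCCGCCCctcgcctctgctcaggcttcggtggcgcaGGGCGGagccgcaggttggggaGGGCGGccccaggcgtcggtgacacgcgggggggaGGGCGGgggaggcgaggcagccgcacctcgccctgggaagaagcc
Gja1: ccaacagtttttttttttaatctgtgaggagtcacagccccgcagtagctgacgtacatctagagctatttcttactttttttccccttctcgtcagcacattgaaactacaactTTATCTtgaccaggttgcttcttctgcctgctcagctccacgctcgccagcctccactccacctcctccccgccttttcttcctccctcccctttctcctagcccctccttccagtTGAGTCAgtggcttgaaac
Tjp1: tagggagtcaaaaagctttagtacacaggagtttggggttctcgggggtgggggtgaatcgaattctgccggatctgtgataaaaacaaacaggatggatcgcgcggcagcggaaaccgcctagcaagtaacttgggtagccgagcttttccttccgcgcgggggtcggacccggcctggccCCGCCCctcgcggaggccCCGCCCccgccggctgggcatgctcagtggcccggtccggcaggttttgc
Jup: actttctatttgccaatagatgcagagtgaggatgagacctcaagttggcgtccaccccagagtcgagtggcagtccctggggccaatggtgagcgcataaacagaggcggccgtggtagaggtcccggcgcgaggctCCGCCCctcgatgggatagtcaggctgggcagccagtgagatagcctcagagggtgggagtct

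Motifs were searched on both strands of the windows of 300 bases, and the share of all 32851 such RefSeq windows with at least 1 match is given beside each. The Dsp window held 4 matches to the SP1 motif GGGCGG (35.7% of windows), and that of Tjp1 2 and that of Jup 2, 1 of them within the printed bases. In the Gja1 window there was 1 match to the AP-1 motif TGANTCA (7.81% of windows), which starts 19 bases before the transcription start, and 1 to the GATA motif AGATAA (11.2%), read on the other strand. Tjp1 had a match to the HIF motif ACGTG (19.6%) after its start, and the first start site of Ctnna3 had another before it. Matches to the TEAD motif GGAATG (14.7%) and the HSF1 motif GAANNTTC (7.86%) lay at the other start sites of Ctnna3. The first start site of Ctnna3 also held 2 matches to the SP1 motif. No window of the 5 genes held the MEF2 motif TATTTNTA (5.99%). None of the matches in the printed stretches overlapped another motif. They describe letters in these windows and were not tested for binding.

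Ratios of a disc gene to a related gene within the same library do not depend on library scaling. They were taken for 7 pairs as log2 ratios of RPKM, and the exact two-sided permutation test of 3 against 3 libraries cannot go below p = 0.1 (0.1235 after Benjamini-Hochberg adjustment over 21 tests), so none passes 0.05. In hypoxia against control the libraries did not overlap for any of the 7 pairs. Gja1 was 11.43, 11.04 and 10.71 times Gjc1, a connexin of the early and conducting heart, in control and 3.65, 3.76 and 3.47 times Gjc1 in hypoxia. With rSRGN this ratio was 5.39, 5.27 and 4.71, above all hypoxia libraries. Cdh2 exceeded Cdh11, a cadherin of mesenchymal cells, 5.83, 6.37 and 6.01 times in control, 1.65, 1.62 and 1.51 times in hypoxia and 1.49, 1.54 and 1.55 times with rSRGN. The ratio thus fell 3.81-fold in hypoxia, and the 2 hypoxic groups overlapped.

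Pkp2 against Pkp4, the plakophilin relative found at many cell contacts, was 1.81, 1.83 and 1.80 in control, 0.680, 0.583 and 0.616 in hypoxia and 0.723, 0.716 and 0.715 with rSRGN. The more abundant gene of this pair was Pkp2 in control and Pkp4 in both hypoxic groups. Ctnna3 was a small fraction of Ctnna1, the alpha-catenin of most tissues, at 0.0278 in control on average, 0.0112 in hypoxia and 0.0138 with rSRGN. Jup against its close relative Ctnnb1 (beta-catenin) averaged 0.470 in control, 0.340 in hypoxia and 0.308 with rSRGN, the hypoxic groups overlapping. For Xirp1 against Xirp2, the other Xin gene of the disc, the mean ratio was 52.0, 13.3 and 27.7, but Xirp2 was at only 1.47 CPM in hypoxia and single libraries ranged from 9.04 to 16.3 there.

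In the other direction, Dsg2 against Dsc2 rose from 0.799 in control to 1.31 in hypoxia, and was 1.11 with rSRGN. For this pair the hypoxia and hypoxia + rSRGN libraries overlapped. With rSRGN against hypoxia, the libraries were separated for 3 of the 7 pairs (Pkp2/Pkp4, Gja1/Gjc1 and Xirp1/Xirp2), each higher with rSRGN.

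**Figure D3:**
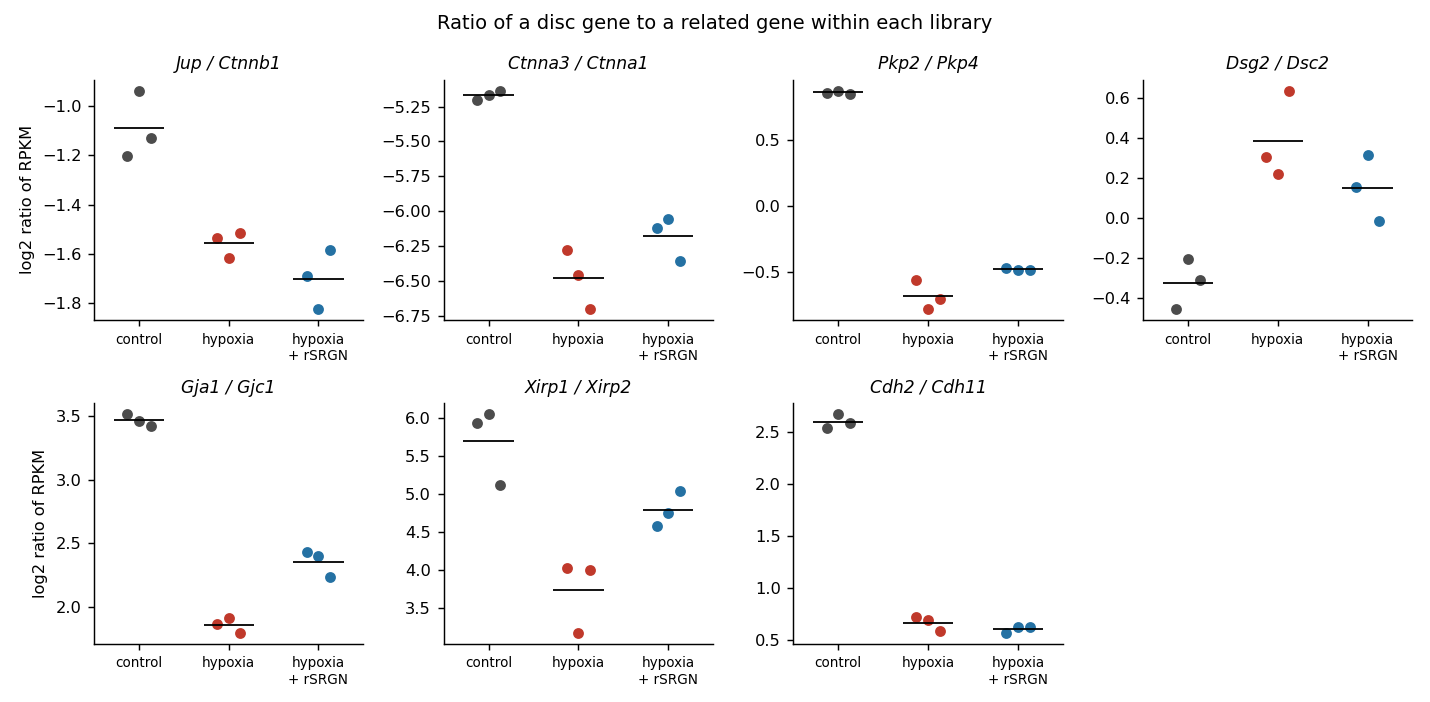
Log2 ratio of the RPKM of a disc gene to that of a related gene (y axis, own scale per panel), with 1 point per library and a line at each group mean. The control libraries stand apart in all 7 panels, above the others in 6 and below them for Dsg2/Dsc2.

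Shares within the connexin, plakin and plakophilin families are given as a description. These families were chosen after the values had been seen and do not stand for the families of all 10 genes, and each share is that of the summed RPKM. Gja1 made up 62.4% ± 0.64 (SD, n = 3) of the RPKM of all 20 connexin genes in control, 43.9% ± 2.2 in hypoxia and 52.4% ± 0.89 with rSRGN. Gja5, a connexin of atrial and conducting tissue, went from 18.5% to 5.13% and 7.33%, and Gja3 from 8.805% to 2.46% and 2.55%. Gjc1 took a larger share, 5.64% in control, 12.1% in hypoxia and 10.3% with rSRGN. The RPKM of all connexins together averaged 255.1 in control, 61.9 in hypoxia and 69.1 with rSRGN, so the larger share of Gjc1 was a share of a smaller sum. Its level itself went from 14.4 to 7.49 and 7.08 RPKM.

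Among Dsp, Plec, Ppl and Evpl, 4 plakins that link filaments to the membrane, Dsp made up 86.2% ± 2.0 (SD, n = 3) in control, 24.95% ± 4.2 in hypoxia and 32.5% ± 1.7 with rSRGN. Plec (plectin) took most of the rest, with 13.4%, 67.9% and 62.5%. Pkp2 made up 63.7% of the 4 plakophilins in control, 35.0% in hypoxia and 38.3% with rSRGN. Jup did not follow this order, making up 32.0% ± 2.1 (SD, n = 3) of Jup and Ctnnb1 together in control, 25.4% ± 0.71 in hypoxia and 23.6% ± 1.5 with rSRGN, with the hypoxic groups overlapping. The families of the desmosomal cadherins were each dominated by 1 gene in all groups: Dsg2 was 98.4% to 99.3% of the 6 desmogleins and Dsc2 92.2% to 99.9% of the 3 desmocollins by group mean.

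**Figure D4:**
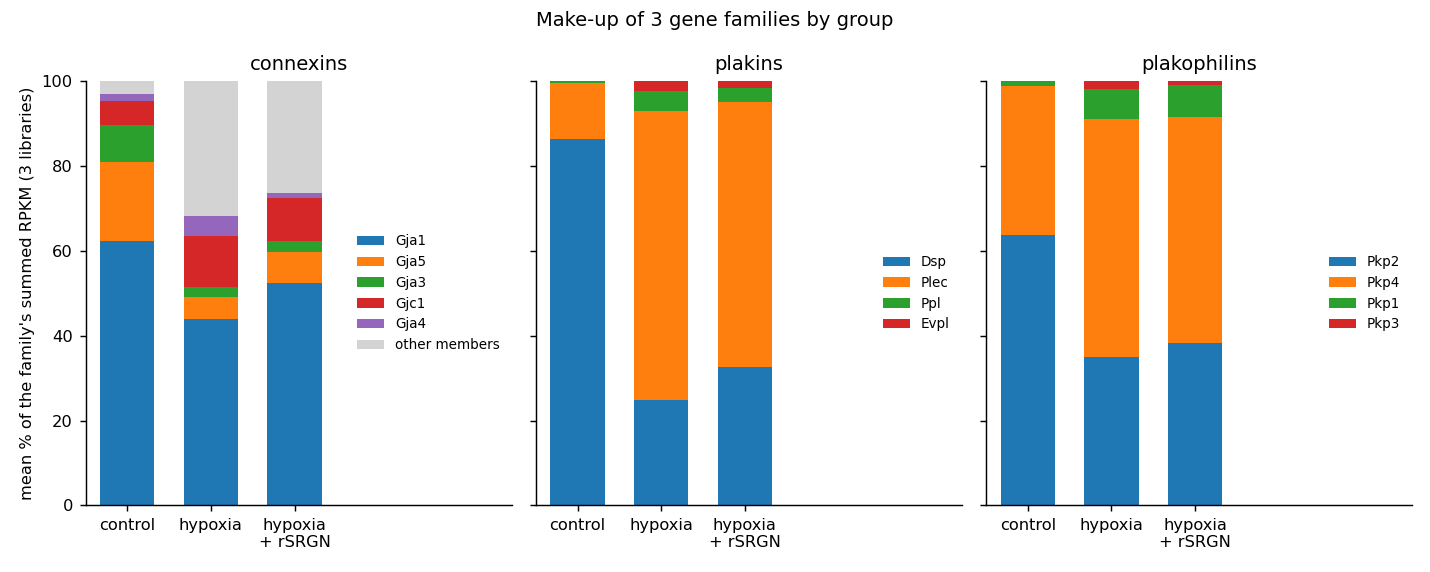
Mean share of the summed RPKM of each family (y axis, %) taken by each gene in the 3 groups, over 3 libraries. The blue segment at the base is the gene followed here (Gja1, Dsp or Pkp2), and in these 3 families it is tallest in control, shortest in hypoxia and between these with rSRGN.

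Beyond the 10 genes, 39 further genes of the disc and its junctions were listed in 4 groups, and 37 of them could be tested (Gjd3 and Gjb2 had too few counts). In hypoxia 22 of the 37 were called lower, 4 higher and 11 neither, with a median log2 fold change of -1.05, beside 25.1% of all tested genes called lower and 26.4% higher and a median over all of 0.05. With rSRGN against hypoxia, 5 were called higher and 1 lower, beside 2.27% and 0.859% of all tested genes, and their median was 0.32 beside -0.03 over all. Without hypoxia replicate 3 these counts were 1 and 1.

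All 9 scaffold and actin linker genes were called lower in hypoxia, beside 25.1% of tested genes, with a median of -3.36. Nrap, which helps build myofibrils at the disc, had 339.7 CPM in control and 17.2 CPM in hypoxia, a fall of 19.7-fold. Popdc2, a membrane protein that binds cyclic AMP, fell 17.9-fold, from 678.8 to 37.9 CPM. With rSRGN, Nrap rose 1.51-fold and Ank3 1.52-fold (edgeR, adjusted p = 0.007656 and 0.001273), Ank3 being the ankyrin that anchors the cardiac sodium channel. The other 7 were not called with rSRGN, and for 6 of these the 3 libraries still lay above those of hypoxia. Among all tested genes 2.27% were called higher with rSRGN and 16.5% had libraries separated in this way.

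Of the 6 other desmosome and filament anchor genes, 3 (Perp, Des and Pkp4) were called lower and 2 (Evpl and Ppl) higher in hypoxia, beside 25.1% and 26.4% of tested genes, so the number called higher is near the background. Perp, a membrane protein of desmosomes, fell from 288.3 to 23.02 CPM (12.5-fold), and Des (desmin), the filament to which desmoplakin attaches, from 751.1 to 106.4 CPM (7.06-fold). Both rose with rSRGN, Perp 1.84-fold and Des 1.53-fold (edgeR, adjusted p = 6.014e-05 and 0.001089). Evpl and Ppl, the plakins of the envelope of squamous epithelia, went the other way. Evpl rose 6.28-fold in hypoxia from 1.12 to 7.08 CPM and Ppl 5.17-fold from 3.24 to 16.8 CPM, and with rSRGN their log2 differences were -0.03 and -0.00. Of the 11 markers of epithelial desmosomes and keratin, 8 were too low to test. Among these were the desmogleins Dsg1a, Dsg1b and Dsg3, and Krt5, which had no count in any library. The 3 others, Krt14, Pkp3 and Pkp1, were called higher in hypoxia, Krt14 from 16.9 to 80.3 CPM and Pkp3 from 0.183 to 1.11 CPM. The summed level of the list was 20.8 to 22.3 CPM in control, 75.96 to 95.04 CPM in hypoxia and 77.3 to 96.3 CPM with rSRGN, beside 209.2 to 240.8, 885.5 to 964.1 and 843.1 to 925.1 CPM for the epicardial and mesothelial markers. Their part in the rise of Evpl and Ppl was not tested.

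Of the 13 other adherens junction genes, 4 (Ctnna1, Cdh13, Ctnnal1 and Vcl) were called lower and 1 (Cdh11) higher in hypoxia, beside 25.1% and 26.4% of tested genes, and their median was -0.55. The share called lower is near that of all tested genes. Ctnna1 fell 3.19-fold and Cdh13, a cadherin held by a lipid anchor, 2.77-fold, while Cdh11 rose 1.58-fold from 141.2 to 223.0 CPM. Ctnnb1 had 485.2 CPM in control and 403.5 CPM in hypoxia, a 1.202-fold difference that was under the limit (edgeR, adjusted p = 0.001173). With rSRGN none of the 13 was called by edgeR at the fold limit, although 11 had a value above 0 and for 9 the 3 libraries lay above those of hypoxia, as for 16.5% of tested genes.

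Of the 9 tested connexins and gap junction partners, 6 were called lower and 1 higher in hypoxia, beside 25.1% and 26.4% of tested genes. Gja5 fell 14.96-fold from 271.5 to 18.1 CPM and Gja3 14.91-fold from 66.6 to 4.47 CPM, while Panx1, a channel protein related to connexins in form, rose 1.83-fold from 13.8 to 25.3 CPM. With rSRGN, Gja5 rose 1.602-fold (edgeR, adjusted p = 0.002893). Gja4, a connexin of endothelial cells, was the 1 gene of the 37 called lower with rSRGN, at 4.79 CPM in hypoxia and 1.38 CPM with rSRGN (3.45-fold, adjusted p = 0.0002686). It had 253 and 78 counts in these groups, and the 8 endothelial markers summed to 50.04 to 64.46 and 51.66 to 66.49 CPM, with no marker at 0. Of these markers only Kdr, a receptor for vascular endothelial growth factor, was called in this comparison, and it was 1.91-fold higher with rSRGN (3.19 and 6.09 CPM, edgeR, adjusted p = 0.004481). The junction adhesion protein Cxadr and the disc protein Tmem65 were among the genes that fell, 3.49-fold and 2.085-fold.

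**Figure D5:**
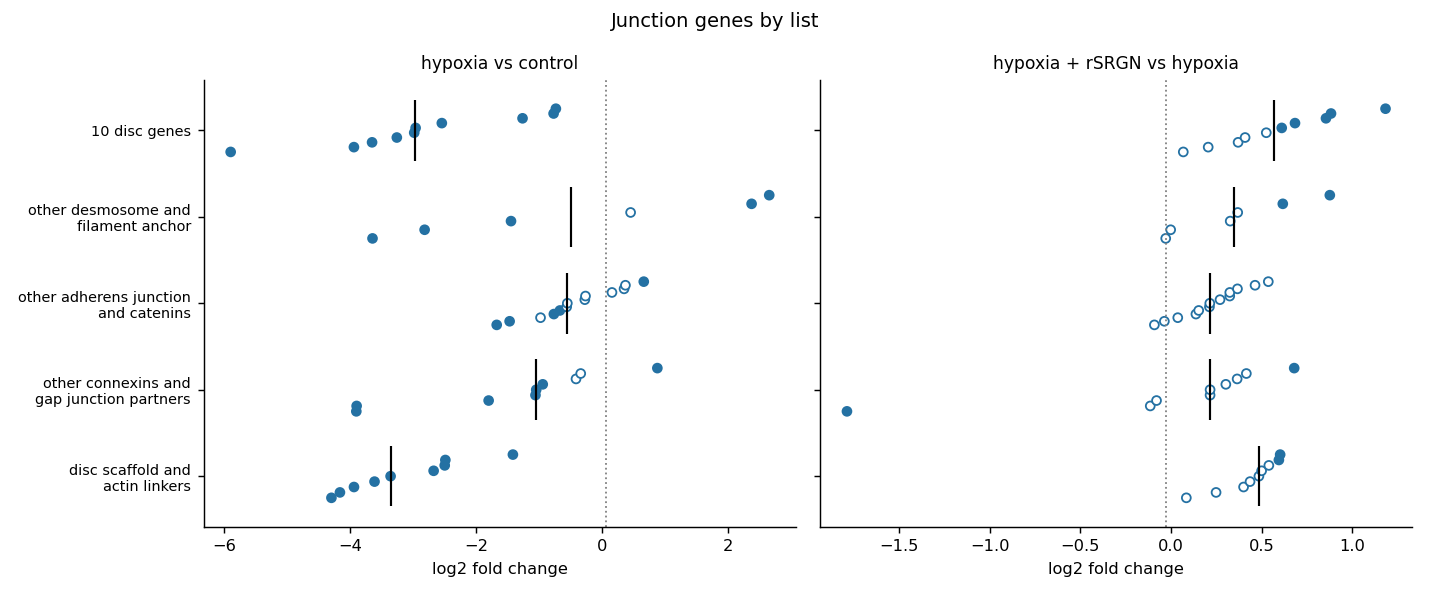
Log2 fold change of each tested gene (x axis) in the 10 disc genes and the 4 lists of further junction genes, for hypoxia against control and for hypoxia + rSRGN against hypoxia. Filled points were called, black lines are list medians and the dotted line is the median of all tested genes. The 10 disc genes and the scaffold list lie wholly to the left of it in hypoxia, and the other 3 lists lie on both sides.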

How the data were processed

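RNA was poly(A)-enriched and sequenced on an Illumina NovaSeq instrument. The authors deposited whole-number counts of fragments per gene, without normalization. The submitters' processing notes name HISAT2, featureCounts and mm10, and the table's header names featureCounts 2.0.1 and GENCODE mouse release M25, with fragments on exons counted without strand. All 9 columns of counts were used and 0 were left out.

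Tests were run with edgeR 4.0.16 under R 4.3.3 (filterByExpr, 16762 of 55401 genes; TMM; 1 mean per group over all 9 libraries; quasi-likelihood test; Benjamini-Hochberg adjustment over all tested genes). The fold change limit was 1.5. RPKM used the exonic length in the table. The fit was also run on simulated data in which 200 genes had been changed, and the outcome is not given here. Any 2 libraries of a group differed by 3.81 to 14.6 chi-square per degree of freedom, so each was kept.

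Genes named are the 10 disc genes, the genes of the 7 pairs, the 3 genes most like a disc gene, and of each list the 2 largest rises and falls among called genes; the connexin, plakin, plakophilin, desmoglein and desmocollin families, the promoter motifs, Pkp1, Ctnnal1, Vcl, Acta2, Kdr, Cxadr and Tmem65 were added after their values were seen. Results for some related genes and 1 further pair are not reported here. The 10 genes and all lists were chosen with earlier results of these data known. Alternatives were DESeq2 1.42.0, RLE scaling, library size alone, filters of at least 1 count in all and of at least 10 counts in every library, only the groups compared, a replicate block, no fold limit, the unadjusted p, and each library left out. Figures were drawn with matplotlib 3.10.9. The number of fragments limits precision for the low genes, and no interval for counting error was computed.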

Additional observations from a re-analysis of the deposited data

How the results depend on the processing

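The directions of the 10 genes held in all 3 comparisons under every alternative: 475 recomputed fold changes stayed on the same side of the call, 4 lost it and 1 gained it. All 10 were called lower in hypoxia under each alternative, and 8 to 9 of 10 with rSRGN against control when a library was left out. Against hypoxia, 5 of 10 were called higher with rSRGN, 8 without a fold limit, and 3 (without hypoxia replicate 3) to 6 with a library left out. Of the 37 other disc genes 6 were called in that comparison, 23 without a fold limit (22 higher and 1 lower), and 2 (without hypoxia replicate 3) to 9 with a library left out. Over all 16762 tested genes 525 were called there, 2790 without a fold limit, and 316 (without hypoxia replicate 3) to 691 with a library left out. In hypoxia against control 25 to 29 of the 37 were called with a library left out, and 27 to 28 with rSRGN against control. Over all tested genes these counts were 8339 to 8639 and 7874 to 8243. DESeq2, RLE scaling and library size alone left all these counts within 1.5 times.

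Libraries with the same replicate number did not deviate together, with correlations of deviations over all tested genes of -0.0374 to 0.0215. Counting noise in low genes enters these values, so they cannot show that the libraries were not paired. With the number as a replicate block, 10, 5 and 9 disc genes were called in the 3 comparisons, as without it, and over all genes 8550, 495 and 8096 against 8644, 525 and 8183.

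Leaving out libraries was added for the pair ratios after the data were seen. In none of these 126 recomputed differences, over the 7 pairs and 3 comparisons, did the direction change. Over all tested genes the median log2 fold change in hypoxia was 0.12 with library size alone, which is small beside the falls of the 10 genes. Summed counts of 234 to 1048 in the hypoxic groups for Dsc2, Dsg2, Ctnna3 and Xirp1 limit the precision of their rises.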
